A study of Mus musculus with 6 samples.

Results

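Non-Hox developmental Polycomb target genes are transcription factors and secreted signals that pattern the embryo, and the set described here holds 55 of them, chosen by name from the known targets of Polycomb repression. All probe sets of the array whose only gene symbol was one of these names were taken, with no filter on intensity, which gave 101 probe sets of 54 genes among 45037 probe sets in all. Pax2 had no such probe set and was not analysed here. The 3 control arrays held RNA of lymph node T cells from mice with both Ezh2 alleles flanked by loxP sites (Ezh2 fl/fl), and the other 3 held lymph node T cells described as Ezh2 deficient. The labels name no Cre line, age, sex, strain or cell purity, and do not say whether the arrays stand for separate animals or pools. P-values here thus reflect the spread among these 6 arrays alone, part or all of which may be technical.

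Ezh2 is the methyltransferase of Polycomb repressive complex 2, which places methyl groups on lysine 27 of histone H3. Chromatin that carries this mark keeps regulators of other lineages off, and CpG-rich promoters of developmental transcription factors are its best known sites. In a T cell, genes such as Gata4 or Pax6 belong to tissues that the cell never forms. The comparison bears on whether the transcripts of such genes appeared when Ezh2 was lost.

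The arrays carried the T cell signal that the labels name. Of 19 probe sets of T cell markers, 18 lay above the array floor on all 6 arrays, and Cd3e averaged 6764 ± 111 in the controls and 6633 ± 989 under Ezh2 deficiency (SD, n = 3 each). Ezh2 itself averaged 688 ± 111 and 282 ± 6.55, an intensity at 41.0% of the control level (log2 difference -1.16, SE 0.13, limma p = 2.05e-05, adjusted p = 0.241 over all 45037 probe sets, smallest exact permutation p of this design 0.10). The deficient readings of 282.4, 288.9 and 275.8 lay close above the array floor, so this ratio need not be the share of transcript left. Which exons were deleted is not stated in the labels. Ezh2 fl/fl replicate 1 stood apart over all probe sets, at -58.9 on a first principal component that ran from 0.465 to 21.4 in the other arrays, but lay within the range of the other arrays over the member probe sets alone. Its deposited median intensity was also the highest, at 188.1 against 163.3 to 169.7.

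The floor of each array was set by transcripts that a T cell should not make. On each array it was the 90th percentile of the intensities of 60 probe sets for 37 genes of mature non-lymphoid tissues, such as albumin, insulin and glucagon. It lay between 177.5 and 217.2 after quantile normalisation, highest on Ezh2 deficient replicate 1. A probe set was called above the floor on an array when its normalised intensity, in arbitrary units, was over that value, and at the floor otherwise. Of the reference probe sets themselves, 2 were above it on all 6 arrays. That of Pomc averaged 540 ± 129 in the controls and 467 ± 35.9 under Ezh2 deficiency, and that of Actn2 591 ± 99.3 and 420 ± 61.7 (SD, n = 3 each). At or below the floor an intensity has no established meaning as a transcript level, so no linear fold is given there. The log2 differences, intervals and p-values printed for such probe sets describe the normalised intensities and no change of a transcript. In RNA of a bulk sample, fewer cells that make a transcript cannot be told apart from less transcript per cell.

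Most of these genes were at the floor in both groups. Of the 101 member probe sets, 88 were at the floor on all 6 arrays, 12 were above it on some arrays and 1, a probe set of Msx1, was above it on every array. The last count depends on where the floor is set and was 12 with the 75th percentile of the reference probe sets, 13 with the 40th percentile of all probe sets, 3 with their median, and 2 without Ezh2 fl/fl replicate 2 or 3. Over all probe sets of the array, 40% were above the floor on all 6 arrays, against 0.99% of the members and 3.33% of the reference probe sets. By gene, 41 were at the floor on every probe set and array, 12 had a probe set that crossed it on some arrays, and Msx1 was the remaining one. The share at the floor on all 6 arrays was 87.1% for the members, 81.7% for the reference genes that set the floor, and 88.3% for 77 probe sets of 45 other developmental Polycomb targets. The share of the reference genes was bound to be high, since they define the floor. Of the Polycomb machinery itself, 52 of 67 probe sets (77.6%) were above the floor on all 6 arrays.

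**Figure D1:**
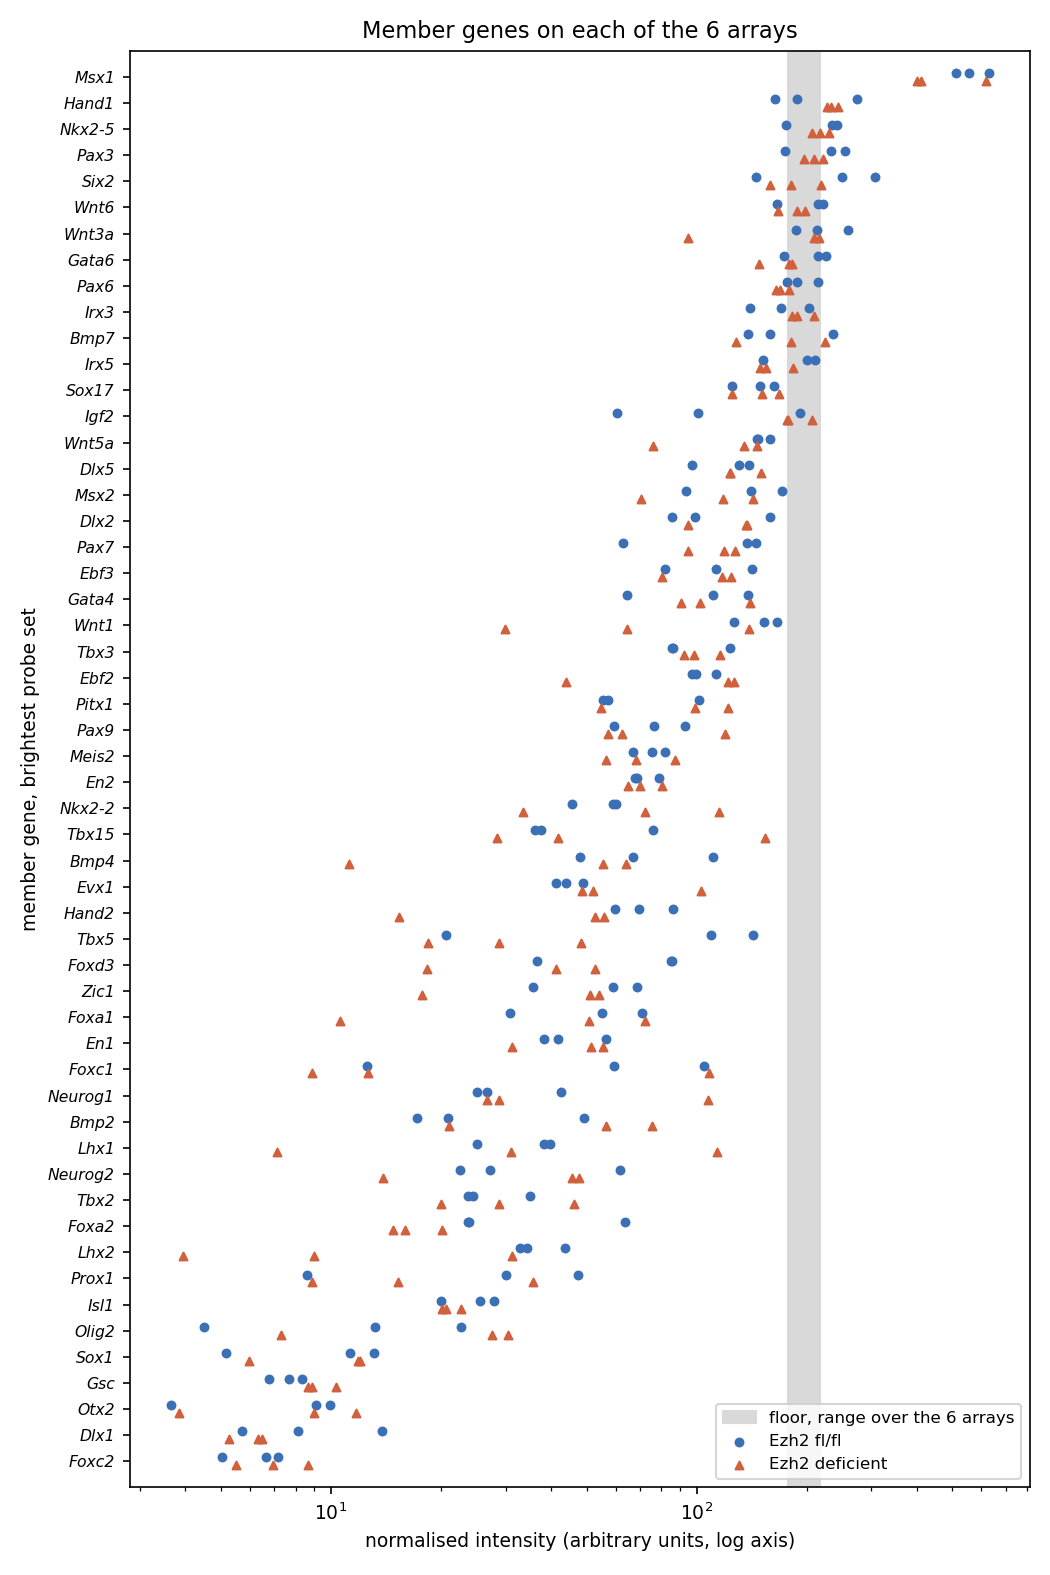
Normalised intensity (arbitrary units, log axis) of the brightest probe set of each of the 54 member genes on the 3 Ezh2 fl/fl arrays (circles) and the 3 Ezh2 deficient arrays (triangles), with the floor of the 6 arrays as a grey band from 177.5 to 217.2. Genes are sorted by mean log2 value for display only, since levels of different probe sets are not comparable; Msx1 alone has all 6 points to the right of the band.

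**Figure D2:**
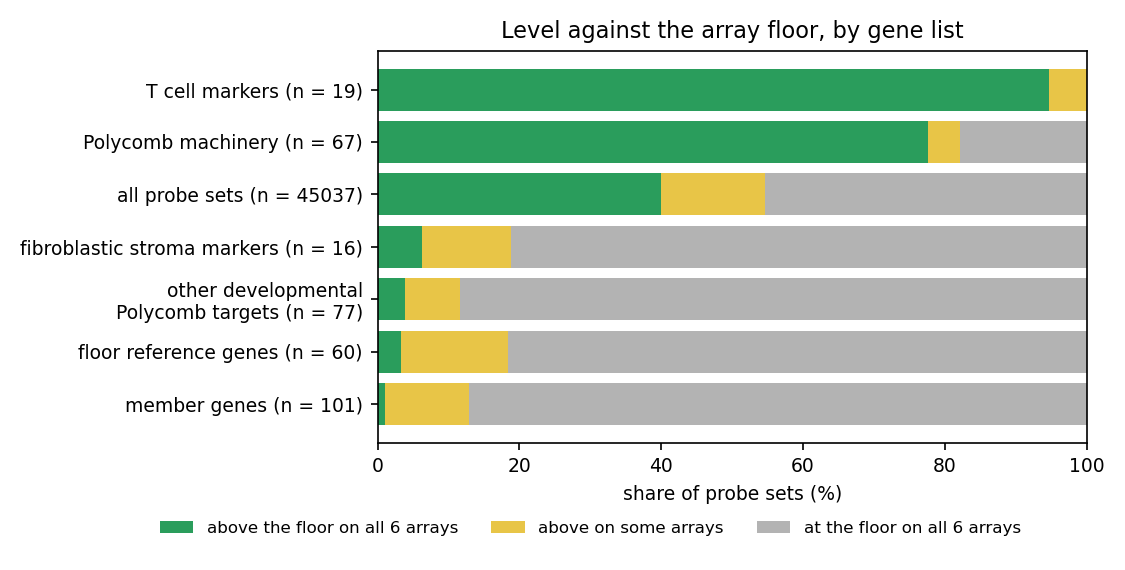
Share of probe sets (%) above the floor on all 6 arrays, above it on some arrays, or at it on all 6, for 7 sets of probe sets whose sizes are given as n. Most probe sets of the T cell markers and the Polycomb machinery are above the floor on all 6 arrays, while 87.1% of the member probe sets are at the floor on all 6 arrays.

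Many listed promoters of these genes were rich in CpG. Sequence did not enter their choice directly, but they were chosen as known Polycomb targets, whose best known sites are such promoters. The CpG content is thus not independent of the choice. In the 250 bases before the start, taken from RefSeq on GRCm38.p6, 37 of the 55 genes had 50 listed promoters, with a median of 19.5 CpG dinucleotides. The median was 20.5 for the Polycomb machinery and 6 over all 32851 listed promoters. With an observed to expected CpG ratio over 0.6 and a GC content over 50% counted as rich in CpG, 31 of the 50 member promoters (62.0%), 71.4% of those of the Polycomb machinery and 30.8% of all promoters passed. The ratio had a median of 0.762 in the members, 0.726 in the Polycomb machinery, 0.215 in the floor reference genes and 0.152 in the T cell markers. CpG-rich promoters were thus found both among genes at the floor and among genes well above it, and most reference genes were at the floor with promoters poorer in CpG. A dinucleotide count describes the letters only and shows no histone mark.

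The promoter of Msx1, the one member above the floor, that of Wnt1, the member with the lowest difference between the groups, and the CpG-richest and CpG-poorest of the 4 listed for Igf2 are shown with each CpG in capitals, 5′ to 3′ on the strand of the gene. Msx1 lies on the minus strand at chr5:37824586-37824835 with 20 CpGs, and Wnt1 on the plus strand at chr15:98789607-98789856 with 23. The promoters of Igf2, on the minus strand at chr7:142658805-142659054 and chr7:142666817-142667066, hold 22 and 1.
Msx1: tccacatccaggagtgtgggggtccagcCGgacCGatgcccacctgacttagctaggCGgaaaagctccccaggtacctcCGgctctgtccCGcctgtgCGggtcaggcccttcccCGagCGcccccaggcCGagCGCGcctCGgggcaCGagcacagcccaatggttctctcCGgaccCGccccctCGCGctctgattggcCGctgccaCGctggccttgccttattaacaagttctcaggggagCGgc
Wnt1: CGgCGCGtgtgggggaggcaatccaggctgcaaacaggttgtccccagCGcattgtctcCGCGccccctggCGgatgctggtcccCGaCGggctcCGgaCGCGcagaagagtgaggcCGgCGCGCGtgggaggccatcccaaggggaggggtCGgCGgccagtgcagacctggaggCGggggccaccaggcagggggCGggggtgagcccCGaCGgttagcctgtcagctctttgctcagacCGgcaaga
Igf2, CpG-rich: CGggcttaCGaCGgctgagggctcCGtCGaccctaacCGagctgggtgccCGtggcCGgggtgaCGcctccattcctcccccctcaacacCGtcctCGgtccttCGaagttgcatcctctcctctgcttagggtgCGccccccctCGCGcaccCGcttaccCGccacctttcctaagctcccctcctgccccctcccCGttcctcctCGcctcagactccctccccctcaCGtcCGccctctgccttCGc
Igf2, CpG-poor: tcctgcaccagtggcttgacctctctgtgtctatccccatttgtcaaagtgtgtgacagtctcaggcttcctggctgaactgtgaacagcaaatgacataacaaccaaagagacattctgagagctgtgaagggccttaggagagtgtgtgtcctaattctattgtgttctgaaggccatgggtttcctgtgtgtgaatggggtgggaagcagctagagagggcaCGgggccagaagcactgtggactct

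**Figure D3:**
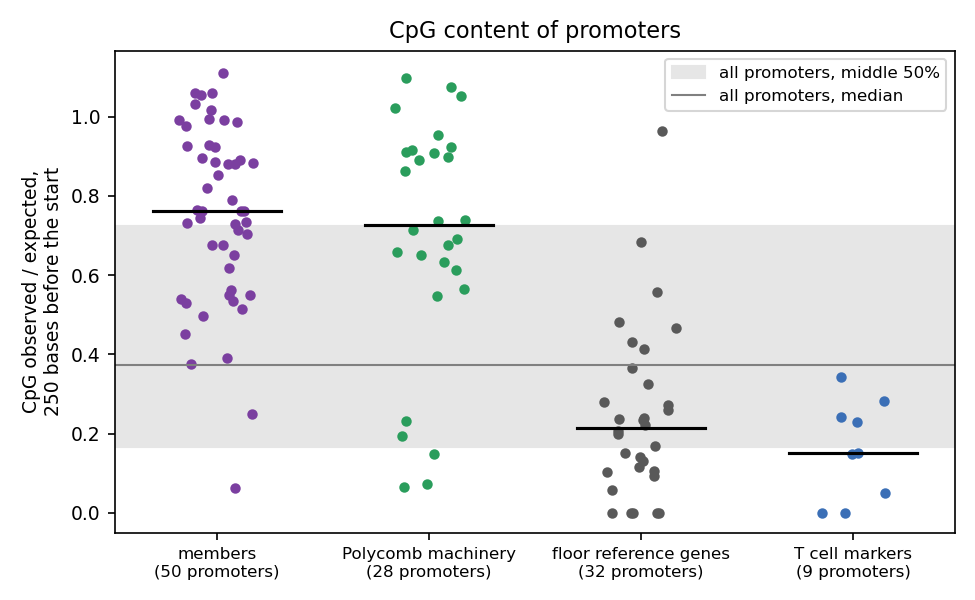
Observed to expected CpG ratio in the 250 bases before the start (vertical axis, no unit) for each listed promoter of the members, the Polycomb machinery, the floor reference genes and the T cell markers, with the median of each set as a black line; the grey band and line give the middle 50% and the median of all 32851 promoters. The medians are 0.762, 0.726, 0.215 and 0.152 in that order.

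No member went from the floor in every control to a level above it in every deficient array. Of 89 member probe sets at the floor in all 3 controls, 0 were above it in all 3 deficient arrays, and of 2 above it in all 3 controls, 0 were at the floor in all 3 deficient arrays. Over the whole array such crossings were also rare, with 29 probe sets gained (0.0644%) and 81 lost (0.18%) of 45037. Over the matching denominators these were 0.135% of 21415 probe sets at the floor in all controls and 0.422% of 19180 above it in all controls. The count of gained members was 0 under each of the other scalings and floors and with each array left out. The highest intensity of a member on a deficient array, leaving aside the Msx1 probe set above the floor, was 243.5, for Hand1.

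By limma, 0 of the 101 member probe sets passed an adjusted p of 0.05, where 1 of all 45037 (0.00222%) did. The smallest adjusted p of a member was 0.657. At an unadjusted p under 0.05, 3 members were higher (2.97%, against 3.43% of all probe sets) and 2 lower (1.98%, against 3.08%). The groups did not overlap, with the deficient arrays higher, for 5 members (4.95%, against 6.07%), and with them lower for 5 (4.95%, against 6.08%). Each of these member counts was small, and its share lay near that of the whole array. The robust and the untrended form of the moderated test also called 0 members, with 5 and 6 at an unadjusted p under 0.05. For these forms the share over all probe sets was not counted.

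The differences of the members were centred near 0. Their median difference, as Ezh2 deficient minus Ezh2 fl/fl on the scale of log2(intensity + 43.3), was 0.0022, and that of all probe sets was -0.0030. There were 51 higher and 50 lower, and the middle 50% of the differences ran from -0.12 to 0.09. The split turned on the scaling, with 38 higher and 63 lower under the deposited scaling, where 56.0% of all probe sets were lower as well. The median of the members on each array, set against the control mean, was 0.0091, -0.0039 and -0.012 in the controls and -0.039, -0.0073 and -0.019 under Ezh2 deficiency, where the pooled SD was 0.0135. These 6 values overlapped between the groups and differed by less than 0.05 from the lowest to the highest.

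**Figure D4:**
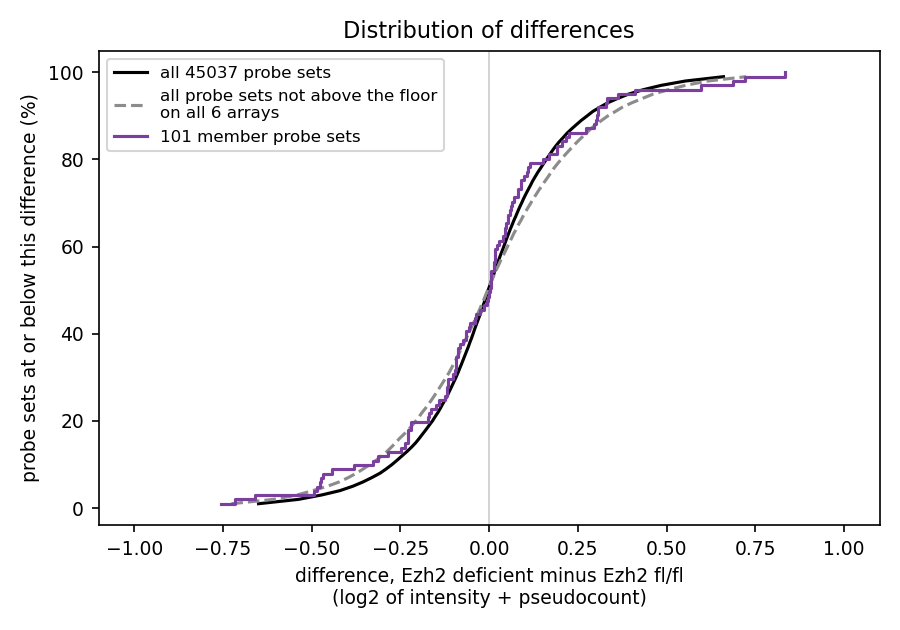
Cumulative share of probe sets (vertical axis, %) against the difference between Ezh2 deficient and Ezh2 fl/fl arrays (horizontal axis, log2 of intensity plus the pseudocount of 43.3), for the 101 member probe sets, all 45037 probe sets and all probe sets not above the floor on all 6 arrays. The curves cross 50% near 0, with medians of 0.0022 for the members and -0.0030 for all probe sets, and no member lies beyond -0.76 or 0.83.

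The precision at these intensities was lower than for brighter transcripts. The median SD within a group was 0.25 on the log2 scale for the members and 0.129 for all probe sets above the floor on all 6 arrays, and the median 95% interval of a member's difference reached 0.441 to each side. For 94 of the 101 members (93.1%, against 94.5% of all probe sets) the upper bound of the interval lay under 1 on this scale, and for 86 (85.1%, against 89.3%) both bounds lay within 1 of zero. A rise up to a member's own upper bound is not excluded by its 6 arrays. Since this scale understates the change of dim probe sets, a larger rise of a transcript at the floor is not excluded either.

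Msx1, a homeobox gene of neural crest, tooth and limb buds, was the one member above the floor on all 6 arrays at the floor used here. Its probe set 1448601_s_at read 511.8, 553 and 628.5 on the Ezh2 fl/fl arrays, replicates 1 to 3 in that order as throughout, and 408.8, 400.9 and 618.4 on the Ezh2 deficient arrays. The groups overlapped, since the third deficient array was above 2 of the controls. The log2 difference was -0.25 (SE 0.17, 95% interval -0.64 to 0.14, limma adjusted p = 0.834). The suffix _s_at marks a probe set that can match several transcripts, and the other Msx1 probe set, 1417127_at, was at the floor on all 6 arrays at 123 ± 44.6 in the controls and 131 ± 35.9 under Ezh2 deficiency (SD, n = 3 each). The reading above the floor thus came from the probe set with that suffix. Reference probe sets of Pomc and Actn2 were above the floor on all 6 arrays too, so this reading alone does not show an Msx1 transcript.

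The other genes of neural crest, muscle and skeleton were near or below the floor. Of the 14 probe sets of this group, 8 had a positive and 6 a negative difference, and the median was 0.02. At an unadjusted p under 0.05 there were 0, against 3.43% higher and 3.08% lower of all probe sets. Among 14 probe sets this 0 says nothing particular to the group. Pax3, which specifies muscle precursors and neural crest, had a probe set that crossed the floor, at 174, 232.5 and 254.8 in the controls and 196.4, 208.7 and 221 under Ezh2 deficiency, so that the groups overlapped. Its other probe sets were at the floor, with log2 differences of 0.31 and 0.41. The muscle stem cell factor Pax7, the thymus, tooth and skeletal gene Pax9, the neural crest factor Foxd3, the homeobox gene Msx2 and the bone-forming factor Dlx5 were at the floor on every array. Foxd3 had the lowest difference of them at -0.47 (95% interval -1.07 to 0.13).

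Among the endoderm and organiser genes, 13 of 14 probe sets were at the floor on all 6 arrays. Gata6, a zinc finger factor of endoderm and heart, had probe sets that differed in direction. Probe set 1443081_at read 12.6, 36.6 and 27.5 in the controls and 53.6, 58.6 and 99.7 under Ezh2 deficiency, so that the groups did not overlap, with a log2 difference of 0.72 (SE 0.22, unadjusted p = 0.011, adjusted p = 0.691). All 6 readings were far under the floor. The brighter probe set 1425464_at went the other way, from 205 ± 27.8 to 169 ± 18.6 (log2 difference -0.22, adjusted p = 0.856), and the last, 1425463_at, was at 0.11.

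Sox17, which specifies endoderm and blood vessel endothelium, had one of its probe sets with groups that did not overlap. Probe set 1429177_x_at read 59.1, 42 and 31.9 in the controls and 61.5, 65.8 and 70.7 under Ezh2 deficiency, at a log2 difference of 0.33 (unadjusted p = 0.102), all under the floor. The brighter Sox17 probe set was at 145 ± 19.3 and 148 ± 21.5, a difference of 0.016. Foxa2, a pioneer factor of liver and floor plate, read 23.8, 63.8 and 23.7 in the controls and 14.8, 15.9 and 20.1 under Ezh2 deficiency, which did not overlap, with the deficient arrays lower (log2 difference -0.38, unadjusted p = 0.0964). Gsc, the homeobox gene of the gastrula organiser, had groups that did not overlap at 7.58 ± 0.788 and 9.26 ± 0.906 (SD, n = 3 each), a gap of under 2 intensity units near the bottom of the scale.

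The lymphatic endothelial and liver factor Prox1 was the other member of this group among the smallest unadjusted p. Its probe set 1437894_at read 4.85, 4.73 and 23.1 in the controls and 22.5, 18.6 and 23.2 under Ezh2 deficiency, so that the third control lay among the deficient arrays (log2 difference 0.27, unadjusted p = 0.113). Its other probe sets were at -0.17 and -0.015. The heart and endoderm factor Gata4 was at 0.082 and -0.10 on its probe sets, the pioneer factor Foxa1 at -0.17 and the homeobox gene Evx1 at 0.30. All of these were at the floor on every array.

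The genes of mesoderm, heart, kidney and limb held the members with the smallest unadjusted p. Hand1, a helix-loop-helix factor of heart and placenta, read 17.9, 27.5 and 8.13 in the controls and 36.8, 95.9 and 69.7 under Ezh2 deficiency on probe set 1448750_at. The deficient arrays were all higher, yet all were under the floor (log2 difference 0.83, SE 0.23, 95% interval 0.29 to 1.37, unadjusted p = 0.00751, adjusted p = 0.657). The other Hand1 probe set, 1417525_at, was brighter and crossed the floor, at 273.4, 163.6 and 188 in the controls and 227.4, 243.5 and 233.4 under Ezh2 deficiency. It was above the floor in 2 of 3 controls and 3 of 3 deficient arrays, with overlapping groups and a difference of 0.17 (adjusted p = 0.906).

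Tbx3, a T-box factor of limb, heart conduction system and mammary gland, was measured by 5 probe sets, all at the floor. On 1439567_at the controls read 19.2, 17 and 16.5 and the deficient arrays 82.8, 32.2 and 55.4, without overlap (log2 difference 0.69, SE 0.20, unadjusted p = 0.00929, adjusted p = 0.677). The other 4 were at 0.045, -0.092, -0.15 and -0.23, so that 2 of the 5 were higher and 3 lower. The brightest of them, 1448029_at, averaged 98.2 ± 21.6 in the controls and 102 ± 12.1 under Ezh2 deficiency (SD, n = 3 each).

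Hand2, which patterns heart and limb, was lower without overlap on 1436041_at, at 59.9, 85.9 and 69.3 in the controls and 52.7, 15.3 and 55.9 under Ezh2 deficiency. Its difference was -0.48 (unadjusted p = 0.0836), while the other Hand2 probe sets were at -0.12 and 0.058. The cardiac homeobox gene Nkx2-5 sat at the floor's edge, at 234, 241.1 and 175.2 in the controls and 230.2, 206 and 217 under Ezh2 deficiency, a difference of 0.014 that turned to -0.039 under the deposited scaling. Six2, which maintains kidney progenitors, read 145.3, 307.9 and 249.2 in the controls and 180.8, 158.9 and 218.6 under Ezh2 deficiency. Its groups overlapped, and the spread between its controls (SD 82.3) was larger than the gap between the group means of 234 and 186.

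The remaining 8 genes of this group were at the floor on every array. They were the T-box genes Tbx2, Tbx5 and Tbx15, the forkhead genes Foxc1 and Foxc2 of vessels and skeleton, Pitx1 of the hindlimb, Isl1 of heart and motor neurons, and Ebf2 of brown fat precursors. Of these, Tbx5 held the lowest difference, -0.72 on 1425695_at, where the controls ran from 20.6 to 142.4 and covered all deficient arrays but the lowest (95% interval -1.61 to 0.18). Over the 27 probe sets of the whole group, 14 were higher, 13 were lower and the median difference was 0.014.

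Some markers of other lymph node cell types were above the floor. For B cells 2 of 14 probe sets were above it on all 6 arrays (Cd79b and Blk) and 9 at it, and for myeloid and dendritic cells 3 of 11 were above it (Cst3 and 2 of Csf1r) and 5 at it. Cst3 averaged 1402 ± 137 in the controls and 1574 ± 35.6 under Ezh2 deficiency, with overlapping groups (SD, n = 3 each). Of the 2 Csf1r probe sets above the floor, 1 was lower without overlap, at 371 ± 70.3 and 264 ± 7.34. The other, at 298 ± 26.9 and 336 ± 103, had overlapping groups. Of the 11 probe sets, 5 were higher and 6 lower. Their summed intensities of 3200, 3255 and 3075 in the controls and 3246, 3288 and 3278 under Ezh2 deficiency overlapped. So did those of the B cell probe sets, at 1686, 1640 and 1771 and then 1767, 1655 and 1835. Of 16 probe sets for fibroblastic stroma, 13 were at the floor on all 6 arrays, among them all those of Pdgfrb, Dcn, Lum and Col3a1. A probe set of Col1a2 was above it on all 6, at 237 ± 50.3 and 228 ± 34.6, and 1 each of Pdgfra and Pdpn on some arrays. The summed intensity of the 16 was 1275, 1317 and 1198 in the controls and 1373, 1359 and 1429 under Ezh2 deficiency. This sum was slightly higher in the deficient arrays without overlap, but most of its probe sets were at the floor. Of the 16, 9 were higher and 7 lower, and the Col1a2 probe set above the floor on all 6 arrays was not higher. Of Hand1, Tbx3 and Gata6, 1 probe set each was higher without overlap, while the other probe sets of these genes were not. The summed T cell markers were lower without overlap, at 121600, 118800 and 119700 in the controls and 118100, 116100 and 116700 under Ezh2 deficiency. Of their 19 probe sets, 15 were lower, among them all those of Cd8a and Cd8b1, and 4 higher, those of Cd2, Cd3g, Cd5 and Lat. Cd8b1 averaged 12250 ± 79.1 in the controls and 10910 ± 498 under Ezh2 deficiency, and Cd3g 10610 ± 441 and 11160 ± 948. The markers shared by all T cells thus had no common direction. The part of these sums in the members' differences was not tested. For endothelium, 8 of 12 probe sets were at the floor on all 6 arrays and 2 above it (Pecam1 and Kdr), and the sums of 2567, 2139 and 2185 in the controls and 2246, 1913 and 2148 under Ezh2 deficiency overlapped.

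**Figure D5:**
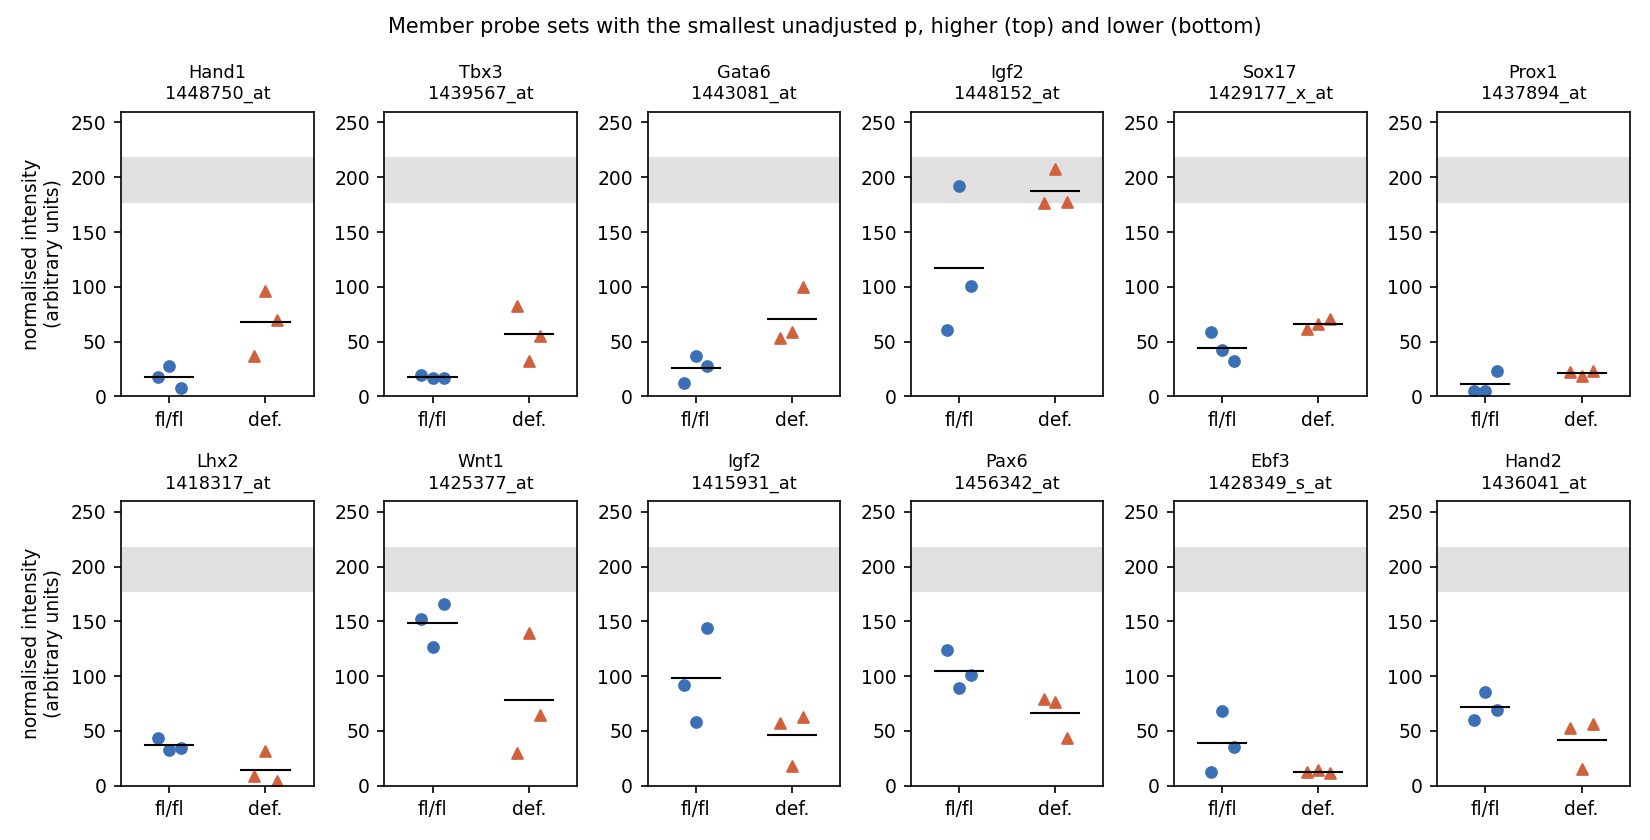
Normalised intensity (vertical axis, arbitrary units) on each of the 3 Ezh2 fl/fl (circles) and 3 Ezh2 deficient (triangles, def.) arrays, with the group mean as a line, for the 6 member probe sets of different genes with the smallest unadjusted p in each direction; the grey band is the floor of the 6 arrays. All points but some of Igf2 1448152_at lie below the band, in both rows.

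The largest group, genes of neural patterning and neurogenesis, gave 31 probe sets of 18 genes, of which 28 were at the floor on all 6 arrays. The differences were positive for 14 and negative for 17, around a median of -0.025. Lhx2, a LIM-homeobox gene of forebrain and hair follicle, had the smallest unadjusted p among the lower members. It read 43.7, 32.8 and 34.5 in the controls and 8.98, 31.3 and 3.95 under Ezh2 deficiency, without overlap although the second deficient array came close to the controls (log2 difference -0.49, SE 0.19, unadjusted p = 0.0315, adjusted p = 0.738). All 6 values were far below the floor.

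Pax6, the master gene of eye development, was measured by 5 probe sets, 2 of them higher and 3 lower. On 1456342_at the controls read 123.6, 89.1 and 101 and the deficient arrays 78.7, 76.5 and 43.5, without overlap (log2 difference -0.44, unadjusted p = 0.0698). On the brightest, 1437816_at, which crossed the floor in 2 controls, the values were 176.2, 214.9 and 187.9 against 164.2, 178.2 and 169.2, a difference of -0.14 with overlapping groups. Ebf3, a factor of neuron and muscle differentiation, read 12.1, 68.1 and 35.3 in the controls and 12.9, 14.2 and 11.3 under Ezh2 deficiency on 1428349_s_at (log2 difference -0.49, unadjusted p = 0.0754). The first control lay among the deficient arrays, while the other Ebf3 probe sets were at -0.094 and -0.041.

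The Iroquois homeobox genes Irx3 and Irx5 were near the floor, above it on some arrays. Irx3 read 139.9, 169.7 and 202.4 in the controls and 209.2, 182.2 and 187.8 under Ezh2 deficiency, and was at 0.15. Irx5 read 200.3, 152 and 210.9 and then 148.8, 154.3 and 183.2, and was at -0.16. The groups of each overlapped, and the pair went in opposite directions.

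The remaining neural genes were at the floor on every probe set and array. They were the proneural genes Neurog1 and Neurog2, Olig2 of oligodendrocytes and motor neurons, the spinal cord factor Nkx2-2, Lhx1, Sox1, Zic1, the midbrain genes En1 and En2, Otx2 of the forebrain, the interneuron genes Dlx1 and Dlx2, and Meis2, a cofactor of homeobox proteins. En1 averaged 45.4 ± 9.72 in the controls and 46 ± 12.9 under Ezh2 deficiency, and En2 averaged 71.6 ± 6.14 and 71.7 ± 7.86 (SD, n = 3 each). All 4 Meis2 probe sets were lower, between -0.13 and -0.036, and all were within the spread of the arrays. Neurog1 reached 107.4 on Ezh2 deficient replicate 1 on probe set 1450836_at, where the other 5 arrays ran from 25.1 to 42.6. Lhx1 likewise reached 113.6 on the same array on 1421951_at, against 7.12 to 39.8 on the others.

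The secreted ligands were the group with the most genes at the edge of the floor, 4 of 8. Over their 15 probe sets 7 were higher, 8 were lower and the median difference was -0.0062. Igf2, the imprinted growth factor of the fetus, gave opposite answers on its probe sets. On 1448152_at the controls read 60.4, 191.7 and 100.7 and the deficient arrays 176.3, 207.1 and 177.8 (log2 difference 0.60, 95% interval -0.081 to 1.28, unadjusted p = 0.0766). On 1415931_at they read 92.2, 57.9 and 144.1 and then 56.9, 18.4 and 62.3 (log2 difference -0.66, 95% interval -1.35 to 0.033, unadjusted p = 0.0593). The groups overlapped on each. A reading of Igf2 above the floor occurred on 1 array, Ezh2 deficient replicate 2, for 1448152_at, while 1415931_at read 18.4 on the same array.

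Among the Wnt ligands, which signal through Frizzled receptors, Wnt1 of the midbrain had the lowest difference of all members. It read 152.4, 126.7 and 165.5 in the controls and 29.9, 138.9 and 64.6 under Ezh2 deficiency, with overlapping groups because the second deficient array lay above the second control (log2 difference -0.76, SE 0.32, 95% interval -1.51 to -0.0075, unadjusted p = 0.0482, adjusted p = 0.765). Wnt3a, which drives somite formation, read 213.6, 258.5 and 187 in the controls, all above the floor, and 208.7, 216.2 and 94.7 in the deficient arrays. Only Ezh2 deficient replicate 2 of the latter was above its floor, and the difference was -0.33 with overlapping groups (adjusted p = 0.865). Wnt6 was at 200 ± 30.1 and 184 ± 16 (SD, n = 3 each) on its brighter probe set, a difference of -0.094, and at 0.097 on the other. Wnt5a, a ligand of planar cell polarity, was at the floor on 4 probe sets, of which 2 were higher and 2 lower. One, 1456976_at, had groups that did not overlap, at 158.9, 146.2 and 146.6 in the controls and 76, 134.9 and 145.7 under Ezh2 deficiency (log2 difference -0.29, unadjusted p = 0.229).

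The bone morphogenetic proteins, ligands of the TGF-beta family, showed no common direction. Bmp7 had 1 probe set at the edge of the floor, at 178 ± 51.8 in the controls and 178 ± 48 under Ezh2 deficiency (SD, n = 3 each), a difference of 0.0022. Bmp2 was at 0.36 (95% interval -0.26 to 0.98) and Bmp4 at -0.47 (95% interval -1.19 to 0.24), both at the floor on all 6 arrays. Bmp4 ran from 48 to 110.6 in the controls and from 11.2 to 64 under Ezh2 deficiency, so that its groups overlapped.

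The probe sets of one gene often differed in direction. Of 29 such genes, 17 had probe sets on both sides of 0, 7 had all of them higher and 5 all lower. The higher readings of Gata6 and Tbx3 and those of Igf2 each had an opposite reading on another probe set of the same gene. For Hand1 both probe sets were higher, and for Sox17 as well, but with overlapping groups on the brighter probe set of each.

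The other developmental targets, a list of 52 genes that shares none with the members, were counted in the same way. Of 77 probe sets for 45 of them, 68 were at the floor on all 6 arrays and 3 were above it on all 6, for Foxf1, Otp and Foxl2. There were 33 higher and 44 lower, where 50.7% of all probe sets were lower, and 0 were called by limma. At an unadjusted p under 0.05, 2 were higher (2.6%, against 3.43% of all probe sets) and 3 lower (3.9%, against 3.08%), shares near those of the whole array. The cell cycle inhibitor genes Cdkn2a and Cdkn2b, classical Polycomb targets of dividing cells, were both at the floor on all 6 arrays. Cdkn2a averaged 101 ± 16.7 in the controls and 73.2 ± 21.5 under Ezh2 deficiency, and Cdkn2b averaged 29.1 ± 7.32 and 37.4 ± 13.9 (SD, n = 3 each).

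Of the Polycomb machinery, 24 of 25 listed genes had probe sets, and 0 of their 67 probe sets passed the adjusted threshold. At an unadjusted p under 0.05, 4 were higher (5.97%, against 3.43% of all probe sets) and 8 lower (11.9%, against 3.08%), Ezh2 included and Bmi1 counted for both its probe sets. All probe sets are an unlike background here, since 77.6% of the machinery and 40% of all were above the floor on all 6 arrays. The median SD within a group was 0.129 for probe sets above the floor and 0.195 for all. Of the 67, 36 were higher and 31 lower, with a median difference of 0.018. Bmi1, a subunit of Polycomb repressive complex 1, was lower without overlap on both probe sets, at 2551 ± 580 and 1846 ± 53.5 on the brighter (log2 difference -0.43, unadjusted p = 0.018, adjusted p = 0.707) and 1611 ± 351 and 1087 ± 42.3 on the other (-0.53, unadjusted p = 0.00782, adjusted p = 0.664). Eed, which binds the methyl mark, averaged 2313 ± 221 in the controls and 2243 ± 37.7 under Ezh2 deficiency on its brighter probe set (log2 difference -0.039, adjusted p = 0.953). The related methyltransferase gene Ezh1 averaged 1412 ± 46.7 and 1386 ± 72 on its brightest probe set (log2 difference -0.027, adjusted p = 0.966). These Eed, Ezh1 and Bmi1 probe sets were above the floor on all 6 arrays.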

How the data were processed

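The deposited table holds linear intensities of 45101 probe sets on 6 single-colour arrays; the authors' software is not given in the sources used here. Their trimmed means were 500 on every array, while the medians differed by 15.2%, so the intensities were quantile normalised and put on the scale log2(intensity + 43.3), with the 20th percentile of the positive intensities as pseudocount. After 64 control probe sets were left out, all 45037 were fitted with limma 3.58.1 (R 4.3.3, eBayes with an intensity trend, 4 residual degrees of freedom), without an intensity filter, and p-values were adjusted over all of them by the Benjamini-Hochberg method, two-sided. The limma step was tested on simulated data. Log2 differences on this scale understate the change of dim probe sets, and the number of arrays limits the precision. The array has no depth in reads.

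Names came from the platform annotation, in which 34945 probe sets had 1 gene symbol, 932 several and 9160 none. The members, gene lists and tests were chosen with earlier results of these data known. Detailed values were given for Ezh2, for members that crossed the floor between groups, for the brightest genes above the floor and for up to 6 members per direction with the smallest unadjusted p; other members with values were chosen after those were seen. Floor reference genes numbered 40, of which 37 had probe sets. The replicate numbers only name the arrays in order of deposit. Alternatives covered the scaling, pseudocount, filter, eBayes form, array weights, floor and each array left out. Means ± SD are over the 3 arrays of a group. Promoter sequences came from RefSeq (GRCm38.p6).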

Additional observations from a re-analysis of the deposited data

How the results depend on the processing

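The counts of 0 called members and of 0 members gained over the floor were the same under every alternative run for them, with 0 called at an adjusted p under 0.10 too. With the filter at the 40th percentile, which kept 20 member probe sets of 18 genes, 0 members had an unadjusted p under 0.05. Leaving out 1 array gave 3 to 8 such members, the lowest when Ezh2 deficient replicate 1 and the highest when Ezh2 fl/fl replicate 2 was dropped. The share over all probe sets was not counted beside these. The count above the floor on all 6 arrays rested on where the floor lay. It was 12 probe sets of 11 genes with the floor at the 75th percentile of the reference probe sets, 13 of 12 genes at the 40th percentile of all probe sets and 3 of 3 genes at their median. It stayed at 1 with the reference's 95th percentile and with a floor common to all arrays, which was added after the data were seen, and was 1 to 2 probe sets, of 1 to 2 genes, with an array left out, being 2 when Ezh2 fl/fl replicate 2 (Hand1 added) or 3 (Nkx2-5 added) was dropped. Members lost to the floor were 0 to 2 by the array dropped, with 2 for Ezh2 fl/fl replicate 1 (Gata6 and Pax6) and 1 each for Ezh2 fl/fl replicate 2 (Irx5) and Ezh2 deficient replicate 2 (Wnt3a).

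The median difference of the members was -0.0472 under the deposited scaling, -0.0127 with 1 probe set per gene, and -0.0430 to -0.0023 with an array left out. Members with groups that did not overlap numbered 13 to 23 with an array left out, since fewer arrays then have to be apart. The matching share over all probe sets was not counted, so this range says nothing particular to the members. The count was 0 among probe sets above the floor on all 6 arrays, which is fixed by the selection, since the only such member is the Msx1 probe set with overlapping groups. Of 203 differences of 27 probe sets under other settings, 201 kept their sign, and Bmp7 at -0.0608 and Nkx2-5 at -0.0391 turned under the deposited scaling. The 27 were member probe sets above the floor on any array, with groups that did not overlap, or with the smallest unadjusted p. Many were thus picked for their difference on these same arrays, so the count of kept signs is no independent support. With an array left out Bmp7 1435479_at ran from -0.147 to 0.184, Nkx2-5 from -0.107 to 0.0838 and Pax3 1420389_at from -0.187 to 0.0406. The Ezh2 difference ran from -1.27 to -1.05. Where not stated, the cause of a change was not tested. No paired analysis was possible because the labels give no replicate numbers that link arrays of the groups.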
